A study of Mus musculus with 6 samples.

Results

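The 7 long noncoding RNA genes described here are Malat1, Neat1, Meg3, Rian, Mirg, H19 and Kcnq1ot1, found by gene symbol among the 53342 rows of the deposited expression table. They were grouped as nuclear or imprinted transcripts and selected on their measured normalized values in these 6 libraries, their share of each library and their spread across the 3 groups, so their own levels and differences are given as a description with no test. The samples were 3T3L1 cells, a clonal preadipocyte line from mouse that differentiates into fat cells when given hormones. The 3 groups, of 2 libraries each, were sequenced from total RNA after ribosomal RNA removal with a stranded kit: 3T3L1 differentiated with LTK-14A, which the study names a butyrylation inhibitor, cells differentiated with DMSO as the solvent control, and untreated cells differentiated without either. All 3 groups were kept in medium with 10% foetal bovine serum and were induced with 1 µM dexamethasone, 1 µg/ml insulin and 0.5 mM IBMX, an inhibitor of phosphodiesterases, followed by insulin alone. The dose of LTK-14A, the time of its addition and the day of harvest are not stated in the sources. Nothing states that the 2 libraries of a group came from separate cultures, so SDs and p-values measure the spread between these libraries, which may be technical. The compound was compared with its solvent, the solvent with untreated cells, and the compound with untreated cells.

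Most long noncoding RNAs of this group act where they are made. Malat1 gathers in nuclear speckles, which store splicing factors, and Neat1 is the architectural RNA around which paraspeckles form with the proteins NONO, SFPQ and PSPC1. Meg3, Rian and Mirg are made from the maternal copy of the Dlk1 to Dio3 domain, which also holds many microRNA and small nucleolar RNA genes. H19 is made from the maternal copy beside Igf2, and Kcnq1ot1 from the paternal copy within Kcnq1, where in mouse it silences neighbouring genes such as Cdkn1c.

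The libraries held 6122687 to 7091007 summed normalized values. A step, the commonest value below 4 in a library, served as a stand-in for reads, though smaller values also occurred. The sums were worth 5342595 and 6388295 steps in untreated libraries, against 2737871 to 3572312 in LTK-14A and DMSO libraries. By this stand-in, zeros and low values were compared with untreated libraries at unlike depth. Loci of ribosomal RNA took 16.4% of the second untreated library and 8.6% to 10.6% of the other 5. The 8 mature adipocyte markers, of which none was at 0 in any group, summed to 3750 to 4295 in LTK-14A libraries, 33513 to 34170 in DMSO libraries and 31087 to 39498 in untreated libraries. The 7 preadipocyte and fibroblast markers summed to 69755 to 73165 in LTK-14A libraries, 41402 to 44800 in DMSO libraries and 44443 to 66041 in untreated libraries. The 4 macrophage markers summed to 84.6 to 87.9 in LTK-14A libraries, 42.2 to 59.3 in DMSO libraries and 37.6 to 47.9 in untreated libraries. The 4 endothelial markers were all listed at 0 in LTK-14A libraries and summed to 4.46 to 9.58 in DMSO libraries and 4.46 to 6.41 in untreated libraries. For all 4 lists the sums of LTK-14A libraries lay outside those of both other groups, while the ranges of DMSO and untreated libraries overlapped. The part of these cell types in the differences of LTK-14A libraries was not tested.

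Per length, the 7 genes ran from the top rows of the table down to its lower limit. Malat1 lay between 18818 and 38597 normalized values per kilobase over the 6 libraries, Neat1 between 1003 and 1469, and Kcnq1ot1 between 19.9 and 37.3. These 3 ranges did not touch each other. Meg3 lay between 0 and 3.33 per kilobase and Rian between 0 and 0.492, so these neighbours in the order overlapped. Mirg was above 0 in 2 libraries and H19 in 1, both below 0.5 per kilobase. The length of Kcnq1ot1 is the 84395-base span in the deposited table, since its coordinates were the only ones of the 7 that differed from the annotation used for exon lengths.

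**Figure D1:**
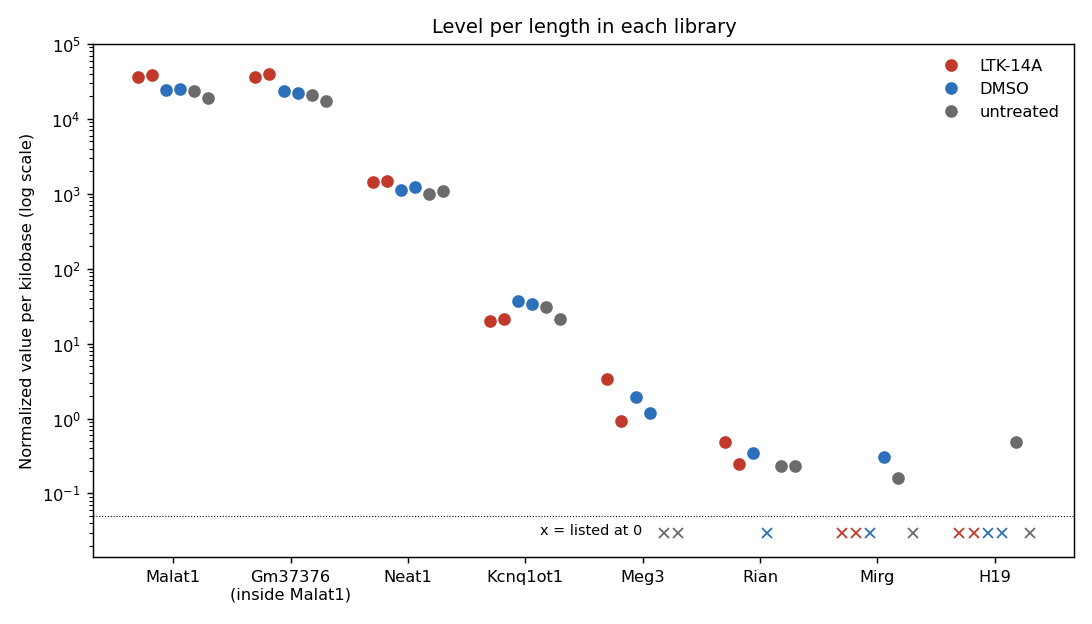
Normalized value per kilobase (log axis) of the 7 long noncoding RNAs and of Gm37376, a gene model inside Malat1, with 1 point per library and crosses for libraries where the gene is listed at 0. Malat1 and Gm37376 lie together at the top, and Meg3, Rian, Mirg and H19 lie below 4 per kilobase in every library.

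RefSeq promoter windows of build GRCm38.p6, from 250 bases before to 50 after the start, were available for 5 of the 7 genes. The cAMP response element (CRE) is the site known for the factor CREB, and the induction medium of all 3 groups holds IBMX, which raises cAMP. The windows of Malat1, Meg3 and Kcnq1ot1 are shown because, of the 6 windows of these 5 genes, they are the ones that hold CRE or half-site letters. Capitals mark the CRE (TGACGTCA), its half-site (TGACG or CGTCA), the CCAAT box (CCAAT or ATTGG) and the TATA box (TATAAA or TTTATA), searched on both strands. The windows are chr19:5802623-5802922 on the minus strand, chr12:109540746-109541045 on the plus strand and chr7:143296498-143296797 on the minus strand.
Malat1: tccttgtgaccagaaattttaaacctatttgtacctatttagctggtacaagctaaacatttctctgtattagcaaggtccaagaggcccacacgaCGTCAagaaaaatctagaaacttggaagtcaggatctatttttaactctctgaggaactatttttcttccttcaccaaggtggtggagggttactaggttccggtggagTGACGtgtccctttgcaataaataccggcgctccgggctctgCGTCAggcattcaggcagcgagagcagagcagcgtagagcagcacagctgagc
Meg3: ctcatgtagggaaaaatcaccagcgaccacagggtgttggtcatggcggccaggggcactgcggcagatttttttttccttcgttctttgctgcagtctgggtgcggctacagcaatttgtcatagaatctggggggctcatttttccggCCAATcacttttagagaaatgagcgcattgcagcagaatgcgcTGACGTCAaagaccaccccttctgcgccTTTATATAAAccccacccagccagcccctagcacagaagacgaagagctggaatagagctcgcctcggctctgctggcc
Kcnq1ot1: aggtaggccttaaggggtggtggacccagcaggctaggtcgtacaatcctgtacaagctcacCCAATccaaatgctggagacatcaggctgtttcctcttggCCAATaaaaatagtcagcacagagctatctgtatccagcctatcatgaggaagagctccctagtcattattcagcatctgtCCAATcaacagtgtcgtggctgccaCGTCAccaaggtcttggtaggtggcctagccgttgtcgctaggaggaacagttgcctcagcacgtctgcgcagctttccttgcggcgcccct
The Meg3 window shown held a full CRE with its first base at position -57 from the start, which overlaps its own half-sites, a CCAAT box at -100 and a TATA box read on both strands at -29 and -25. The Malat1 window held 3 half-sites, at -154, -45 and -3. The Kcnq1ot1 window held 3 CCAAT boxes, at -188, -148 and -67, and 1 half-site at -42. The Mirg window held a CCAAT box at -184 alone, and the Rian window and a second Meg3 window, from 109545148 to 109545447 on chromosome 12, held none of the motifs searched. Among 32851 RefSeq windows of the same length, 1.79% held a full CRE, 20.8% a half-site, 37.4% a CCAAT box and 13.6% a TATA box. The C/EBP letters TTGCNNAA, found in 10.8% of windows, and the GC box GGGCGG, found in 35.7%, were searched too and did not occur in the windows of these 5 genes. A match to these letters is a description only.

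Malat1 (ENSMUSG00000092341) lies on the minus strand of chromosome 19, from 5795690 to 5802672 in mm10, and is a single exon of 6983 bases. With LTK-14A its normalized value was 256095 and 269526, with DMSO it was 171880 and 175240, and in untreated cells it was 164718 and 131403. Both LTK-14A libraries lay above both DMSO libraries, which in turn lay above both untreated libraries. It made up 4.14% ± 0.222 of the summed values in LTK-14A libraries, 2.79% ± 0.0295 in DMSO libraries and 2.22% ± 0.523 in untreated libraries (SD, n = 2 each). Only 1 row, the ribosomal RNA locus Gm26917, was above Malat1 in 5 libraries, and in the second untreated library Malat1 ranked 4.

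The difference in Malat1 between LTK-14A and DMSO was 0.60 on the log2(value + 1) scale, 1.51-fold, and the 4 library pairs gave 0.55 to 0.65. Between DMSO and untreated it was 0.24, with pairs from 0.06 to 0.42, and between LTK-14A and untreated it was 0.84, 1.78-fold. Without the ribosomal RNA loci in the total, its share was 4.46% and 4.76% in LTK-14A libraries, 3.07% and 3.06% in DMSO libraries, and 2.86% and 2.22% in untreated libraries. Quantile normalization, which gives the same value to the same rank, set the difference between LTK-14A and DMSO to 0, because Malat1 ranked 2 in all 4 of these libraries. In these bulk samples, a change in the share of a cell type and a change in RNA per cell cannot be told apart.

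Gm37376, an unnamed gene model of 453 bases on the opposite strand, lies wholly inside the Malat1 exon, from 5801941 to 5802393. Its value was 16481 and 17987 in LTK-14A libraries, 10597 and 10104 in DMSO libraries, and 9440 and 7794 in untreated libraries. That is 5.73% to 6.67% of Malat1 in every library. Per kilobase it came to 36381 and 39706 in LTK-14A libraries, where Malat1 had 36674 and 38597, and to 23394 and 22305 in DMSO libraries, where Malat1 had 24614 and 25095. The use of strand in the authors' counting is not stated in the sources, so reads of this model and of Malat1 cannot be told apart. Another nuclear RNA of very high level, Rn7sk, a regulator of transcription elongation, took 1.65% and 1.38% of the LTK-14A libraries, 1.49% and 1.49% of the DMSO libraries, and 1.28% and 1.22% of the untreated libraries. Its LTK-14A and DMSO libraries overlapped, with a log2 fold change of 0.04 ± 0.20 (SE, limma adjusted p = 0.934).

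Neat1 (ENSMUSG00000092274) lies 22035 bases beyond the 5′ end of Malat1, from 5824708 to 5845478 on the same strand, as a single exon of 20771 bases. Its normalized value was 30255 and 30513 in LTK-14A libraries, 23478 and 25733 in DMSO libraries, and 20832 and 22791 in untreated libraries. The 3 groups did not overlap and stood in the same order as for Malat1. The log2 difference was 0.31 between LTK-14A and DMSO, 1.23-fold, with pairs from 0.23 to 0.38. It was 0.17 between DMSO and untreated, and 0.48 between LTK-14A and untreated. Quantile normalization left 0.04 of the difference between LTK-14A and DMSO, with Neat1 at ranks 12 and 12 in LTK-14A libraries and 13 and 12 in DMSO libraries. The gap between the 2 libraries of a group, 0.01 in LTK-14A, 0.13 in DMSO and 0.13 in untreated on the log2 scale, was smaller than the difference between LTK-14A and DMSO.

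Kcnq1ot1 (ENSMUSG00000101609) lies on the minus strand of chromosome 7, from 143212155 to 143296549, inside Kcnq1 and antisense to it. Its normalized value was 1676 and 1818 in LTK-14A libraries, 3144 and 2834 in DMSO libraries, and 2639 and 1779 in untreated libraries. Both LTK-14A libraries lay below both DMSO libraries, while the second untreated library lay between the 2 LTK-14A libraries. The log2 difference was -0.77 between LTK-14A and DMSO, 0.585-fold, with pairs from -0.91 to -0.64. Between DMSO and untreated it was 0.46, with pairs from 0.10 to 0.82, and between LTK-14A and untreated it was -0.31, with overlap. The other scalings tried gave -0.86 to -0.78 between LTK-14A and DMSO. Kcnq1 itself, a potassium channel gene, was at 0 in each LTK-14A library, at 1.72 and 1.22 in DMSO libraries, and at 0 and 3.04 in untreated libraries. Of the gene models inside the span, Gm27395 was at 1.72 to 6.44 over the 6 libraries and Gm27389 was above 0 in 2 libraries.

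**Figure D2:**
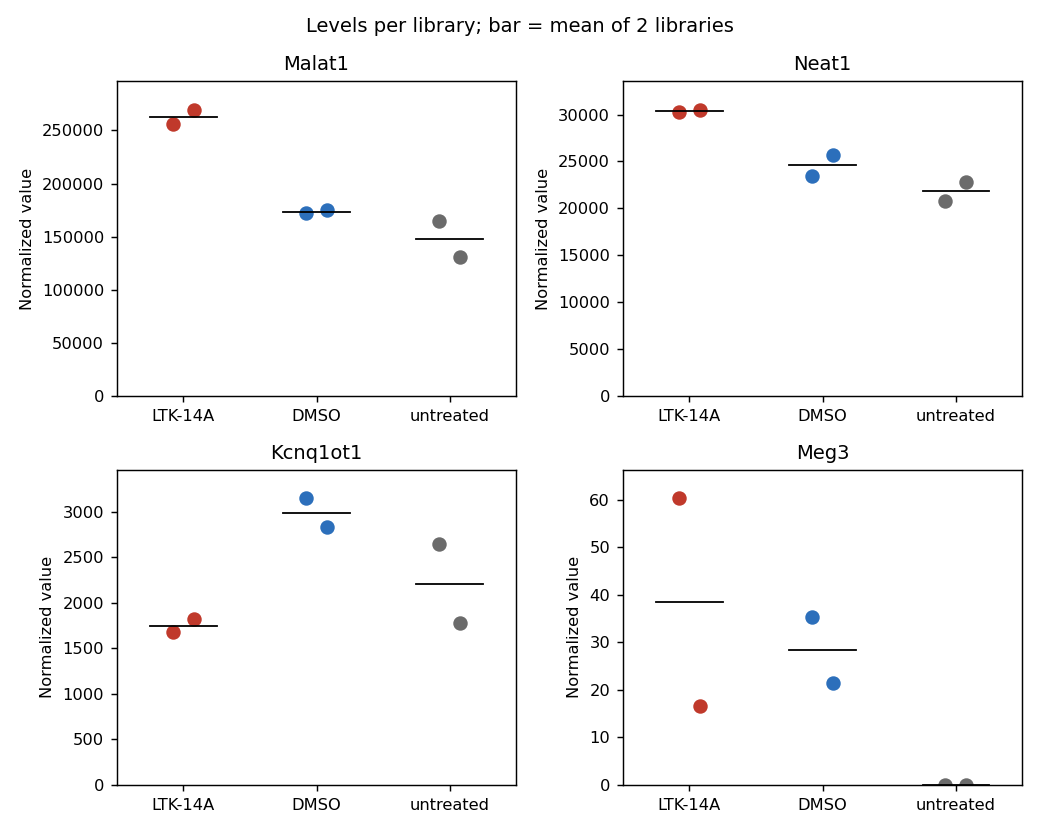
Normalized value of Malat1, Neat1, Kcnq1ot1 and Meg3 in each library, with 1 point per library, a bar at the mean of each group of 2 and the vertical axis starting at 0. Malat1 and Neat1 are highest in LTK-14A libraries, Kcnq1ot1 is highest in DMSO libraries, and Meg3 is listed at 0 in both untreated libraries.

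Meg3 (ENSMUSG00000021268), of which 1 of 2 windows held the full CRE, lies on the plus strand of chromosome 12, from 109541001 to 109571726, with 18089 exonic bases. Its normalized value was 60.3 and 16.6 in LTK-14A libraries and 35.3 and 21.4 in DMSO libraries, and it was listed at 0 in both untreated libraries. In steps of the library these values were 33.5 and 7.23 in LTK-14A libraries and 16.5 and 9.5 in DMSO libraries. The 2 LTK-14A libraries enclosed the DMSO libraries, with a log2 difference of 0.20 and pairs from -1.05 to 1.45. Leaving out 1 library turned its direction, to -0.70 without the first LTK-14A library. No fold is given against the untreated group. Among the 24139 genes tested, Meg3 was the only named gene at 0 in both untreated libraries and at 15 or more in the other 4, beside 5 unnamed models. The limit of 15 was set after the values of Meg3 were seen, and other genes fell just short of it. The brain genes Cdr1 and Snhg11 were also at 0 in both untreated libraries. In LTK-14A and DMSO libraries Cdr1 was at 13.5 to 25.2 and Snhg11 at 11.3 to 16.0.

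A listed 0 need not mean absence in this table. Rmrp, the RNA of the RNase MRP enzyme that every cell uses, was at 7197 and 6401 in LTK-14A libraries, at 6113 and 8.47 in DMSO libraries, and at 0 in both untreated libraries. Many brain genes at trace level were, like Meg3, lower in untreated libraries. A list of 25 neuronal and glial genes, drawn up after the values of Meg3 were seen, summed to 283.5 to 312.3 in LTK-14A libraries, 306.0 to 311.7 in DMSO libraries and 66.0 to 66.8 in untreated libraries. Of the 25, 4 were at 0 in both LTK-14A libraries, 2 in both DMSO libraries and 16 in both untreated libraries. The groups were separate and higher than untreated for 15 of the 25 in LTK-14A libraries and for 17 in DMSO libraries, and lower for none. Over all 24139 tested genes, 24.6% were separate and higher in LTK-14A libraries and 16% in DMSO libraries. The list holds Slc1a2, given below as the nearest gene to Meg3. Its sums and counts are therefore a description only. Defining markers at 0 included Rbfox3 and Gfap in both LTK-14A libraries and Rbfox3, Nefl and Gad1 in both untreated libraries. The part of such RNA in the Meg3 values was not tested.

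By likeness of profile, the nearest gene to Meg3 among 10590 named genes with a mean of at least 20 was Slc1a2, the main glutamate transporter of astrocytes. Genes with a lower mean, Cdr1 and Snhg11 among them, were left out of this ranking. The measure was the root mean square difference between log2(value + 1) profiles centred on their mean over the 6 libraries, and it was 0.643 for Slc1a2, 1.568 for Camk2n1 and 1.61 for Ccl6. Slc1a2 was at 64.8 and 62.7 in LTK-14A libraries, 49.3 and 42.8 in DMSO libraries, and 1.19 and 0 in untreated libraries. Xist, the RNA that silences the X chromosome in female cells, was at 29.7 and 24.9 in LTK-14A libraries, 26.8 and 16.4 in DMSO libraries, and 7.73 and 3.15 in untreated libraries. For Malat1 the nearest were Ppp3cb at 0.044, Dnajc18 at 0.046 and Slc30a7 at 0.046, and 746 genes lay within 0.2, so its profile was a common one. Neat1 lay at 0.206 from Malat1.

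**Figure D3:**
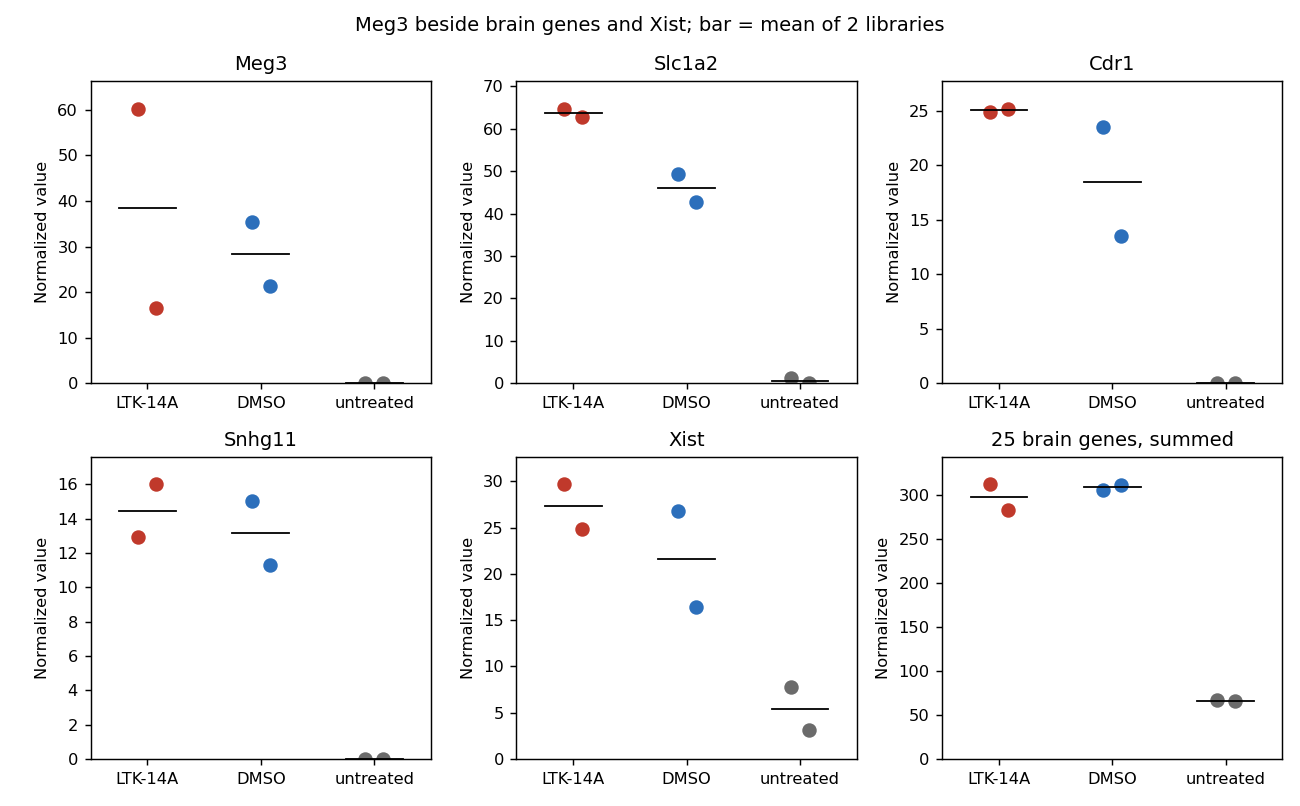
Normalized value in each library of Meg3, of the brain genes Slc1a2, Cdr1 and Snhg11, of Xist and of 25 brain genes summed, with 1 point per library and a bar at the mean of each group of 2. In all 6 panels both untreated libraries lie below all LTK-14A and DMSO libraries.

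Rian and Mirg, downstream of Meg3 on the same strand, were near the lower limit. Rian (ENSMUSG00000097451) was at 8.98 and 4.58 in LTK-14A libraries, 6.42 and 0 in DMSO libraries, and 4.28 and 4.22 in untreated libraries, which is at most 4.99 steps. Its DMSO libraries enclosed the untreated ones, so the zero pattern of Meg3 did not appear in Rian. Mirg (ENSMUSG00000097391) was listed at 0 except for 2.26 in the second DMSO library and 1.19 in the first untreated library, 1 step in each. Of the 97 other rows between the start of Meg3 and the end of Mirg, 93 were at 0 in all 6 libraries, including all 66 microRNA and all 23 small nucleolar RNA rows. Over the whole table, 1818 of 2202 microRNA rows and 1190 of 1507 small nucleolar RNA rows were at 0 in all libraries. H19 (ENSMUSG00000000031), on chromosome 7 from 142575529 to 142578143, was listed at 0 in 5 libraries and at 1.19, 1 step, in the first untreated library. Its microRNA Mir675 was at 0 throughout.

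Of the 7 genes, 6 passed the filter on low values, which asked for 1 or more in 2 libraries or more, and H19 did not. LTK-14A and DMSO libraries did not overlap for 3 of the 7, higher in Malat1 and Neat1 and lower in Kcnq1ot1, where the groups were separate for 54.3% of all 24139 tested genes, 24.5% higher and 29.8% lower. DMSO and untreated libraries did not overlap for 4, all higher in DMSO, against 33.1% of all tested genes separate, 16% higher and 17.2% lower. These were Malat1, Neat1, Meg3 and Kcnq1ot1. LTK-14A and untreated libraries did not overlap for 4, all higher in LTK-14A, against 53.6% of all tested genes separate, 24.6% higher and 28.9% lower. These were Malat1, Neat1, Meg3 and Rian. Because these contrasts chose the genes, nothing is read from the counts.

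Genes that share a domain, a nuclear body or a class with the 7 were tested in 4 lists with limma over all 24139 tested genes, each in both directions with Benjamini-Hochberg adjustment. Between LTK-14A and DMSO 10.6% of all tested genes passed, 3.98% higher and 6.58% lower. Between DMSO and untreated 0.0249% passed, all of them higher, and between LTK-14A and untreated 12.9% passed, 4.68% higher and 8.17% lower. In limma, 0 genes of the 4 lists passed between DMSO and untreated. At an unadjusted p under 0.05 in that comparison there were 6 imprinted genes, 1 gene of the nuclear bodies, 5 other long noncoding RNAs and 6 neighbouring genes. These are 15.4%, 2.17%, 16.1% and 8.57% of the genes tested in each list, against 5.83% of all tested genes.

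Among imprinted genes, 4 rose and 2 fell in LTK-14A against DMSO and 33 of the 39 tested did not pass. The median log2 fold change was -0.08, against -0.05 over all genes tested. Peg10, derived from a retrotransposon and needed for the placenta in mouse, was at 4558 and 4930 in LTK-14A libraries, 1148 and 1386 in DMSO libraries, and 1449 and 981.2 in untreated libraries. It rose by 1.91 ± 0.19 (SE, limma adjusted p = 0.00123) against DMSO, and it passed under each alternative tried, with adjusted p from 0.000199 to 0.0355. Sgce, which shares an imprinted domain with Peg10, was at 493.1 and 471.4 in LTK-14A libraries and 427.6 and 428 in DMSO libraries (limma adjusted p = 0.419).

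Dlk1, the paternal gene of the Meg3 domain, encodes a protein that restrains adipocyte formation. It was at 5359 and 5214 in LTK-14A libraries, 3171 and 3141 in DMSO libraries, and 3036 and 4515 in untreated libraries, a rise of 0.74 ± 0.18 against DMSO (limma adjusted p = 0.0423). Igf2r, the receptor that clears IGF2, rose by 0.53 ± 0.13 (limma adjusted p = 0.0399). Airn, the antisense RNA that silences Igf2r on the paternal copy, was at 92.3 and 116.5 in LTK-14A libraries, 188 and 172.4 in DMSO libraries, and 148.6 and 103.1 in untreated libraries (limma adjusted p = 0.0694 against DMSO). Like Kcnq1ot1, Airn lay lower in both LTK-14A libraries than in both DMSO libraries, and the second untreated library lay in the LTK-14A range. Impact rose by 0.46 ± 0.11 (limma adjusted p = 0.0434).

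Mest, a gene linked to fat mass in mouse, fell to 25 and 24.9 in LTK-14A libraries, against 58.5 and 57.8 in DMSO libraries (log2 fold change -1.19 ± 0.25, limma adjusted p = 0.0259). Plagl1, a zinc finger factor, was at 0 in each LTK-14A library and at 8.98 and 6.77 in DMSO libraries, and passed as lower (limma adjusted p = 0.0211). In those DMSO libraries 3 steps come to 6.44 and 6.77, so this call rests on values of a few steps. Igf2, the partner of H19, was at 4.94 and 4.56 in LTK-14A libraries, 11.3 and 9.58 in DMSO libraries, and 9.55 and 6.14 in untreated libraries (limma adjusted p = 0.271 against DMSO). Rtl1, paternal and opposite to Meg3, was at 0 to 6.77 (limma adjusted p = 0.765). Dio3 and Phlda2 were at 0 in all 6 libraries, and Cdkn1c was above 0 in the first untreated library only, at 1.84. Against untreated, 3 imprinted genes rose and 3 fell in LTK-14A. The count of 6 against DMSO became 1, Peg10, without either LTK-14A library or either DMSO library, and the count against untreated lay between 1 and 10 with 1 library left out.

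Of the 46 genes listed for speckle and paraspeckle proteins, all tested, 3 rose and 6 fell in LTK-14A against DMSO, with a median of -0.08 against -0.05 over all genes. The 6 include Elac2, an RNA-processing enzyme placed on this list rather than a protein of these bodies. With equal totals the split was 0 higher and 5 lower, and under quantile normalization it was 1 higher and 6 lower. Sfpq, which together with Nono and Pspc1 forms the core of paraspeckles, fell to 921.5 and 852.1 in LTK-14A libraries, against 1422 and 1356 in DMSO libraries (log2 fold change -0.65 ± 0.12, limma adjusted p = 0.0187). Nono was at 1009 and 999.1 in LTK-14A libraries and 828.1 and 836.8 in DMSO libraries (limma adjusted p = 0.156). Pspc1 was at 120.7 and 135.4 in LTK-14A libraries and 133.8 and 194.1 in DMSO libraries (limma adjusted p = 0.381).

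Elac2, the RNase Z that trims transfer RNAs and in mammals the small RNA cut from the Malat1 3′ end, fell to 86.4 and 121.3 in LTK-14A libraries, against 220.2 and 260.4 in DMSO libraries (log2 fold change -1.22 ± 0.20, limma adjusted p = 0.0103). Rpph1, the RNA of RNase P, which makes the first cut there, overlapped between LTK-14A and DMSO libraries (limma adjusted p = 0.783). The splicing factor genes Srsf6, Srsf7 and U2af2 fell, Srsf6 to 399.1 and 409 in LTK-14A libraries against 692.8 and 720.7 in DMSO libraries (limma adjusted p = 0.00494). Srrm2, one of the scaffold proteins of speckles, rose to 9596 and 10635 in LTK-14A libraries, against 6849 and 7145 in DMSO libraries (log2 fold change 0.53 ± 0.12, limma adjusted p = 0.0321). Rbm25 and Srsf11 rose by 0.45 and 0.41 on the log2 scale. With equal totals these 3 genes did not pass, at 0.0596 for Srrm2, 0.0829 for Rbm25 and 0.0936 for Srsf11 (limma adjusted p). Son, the other scaffold, was at 2154 and 2342 in LTK-14A libraries and 3014 and 2961 in DMSO libraries (limma adjusted p = 0.0528). Against untreated, 4 of these genes rose and 7 fell in LTK-14A.

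The count of 9 against DMSO became 0 without the first LTK-14A library or either DMSO library and 1 without the second LTK-14A library. It became 15 without either untreated library, and 0 in limma without the variance trend. Srsf6, the smallest adjusted p of the list, had adjusted p from 0.00205 to 0.0778 over all alternatives.

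Of 39 other long noncoding RNAs listed, 34 were in the table and 31 were tested. Between LTK-14A and DMSO none rose and 1 fell, 3.23% of those tested, with 7 at an unadjusted p under 0.05 and a median of -0.01. The one that fell was Mir99ahg, the host RNA of the Mir99a cluster, at 111.9 and 109.9 in LTK-14A libraries, 207.5 and 195.2 in DMSO libraries, and 182.8 and 144.5 in untreated libraries (log2 fold change -0.85 ± 0.17, limma adjusted p = 0.0225). Its adjusted p was 0.128 to 0.148 without any 1 of the LTK-14A or DMSO libraries. Mir22hg, the host RNA of Mir22, was at 117.5 and 100.4 in LTK-14A libraries and 157.5 and 184.3 in DMSO libraries (limma adjusted p = 0.0593). Epb41l4aos was at 76.2 and 69.7 in LTK-14A libraries and 32.5 and 15.8 in DMSO libraries (limma adjusted p = 0.0923). Tug1, a nuclear and cytoplasmic RNA, was at 923.1 and 1001 in LTK-14A libraries and 1351 and 1237 in DMSO libraries (limma adjusted p = 0.335). Without the first or the second untreated library, 7 or 6 of this list passed, Tug1 and Airn among them. Against untreated, Rmrp and Xist passed as higher in LTK-14A, Xist by 2.23 ± 0.51 (limma adjusted p = 0.0297), beside the brain genes given above. Rmrp was listed at 0 in both untreated libraries and at 6113 and 8.47 in DMSO libraries. As a listed 0 need not mean absence, its call is not read as a change in level. The Xist adjusted p in limma was 0.169 without the first LTK-14A library, 0.126 without the second, 0.0549 and 0.0518 without the first and the second DMSO library, and 0.0845 without the second untreated library. That of Rmrp was 0.122 without the first LTK-14A library, 0.11 without the second and 0.0524 without the second untreated library.

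**Figure D4:**
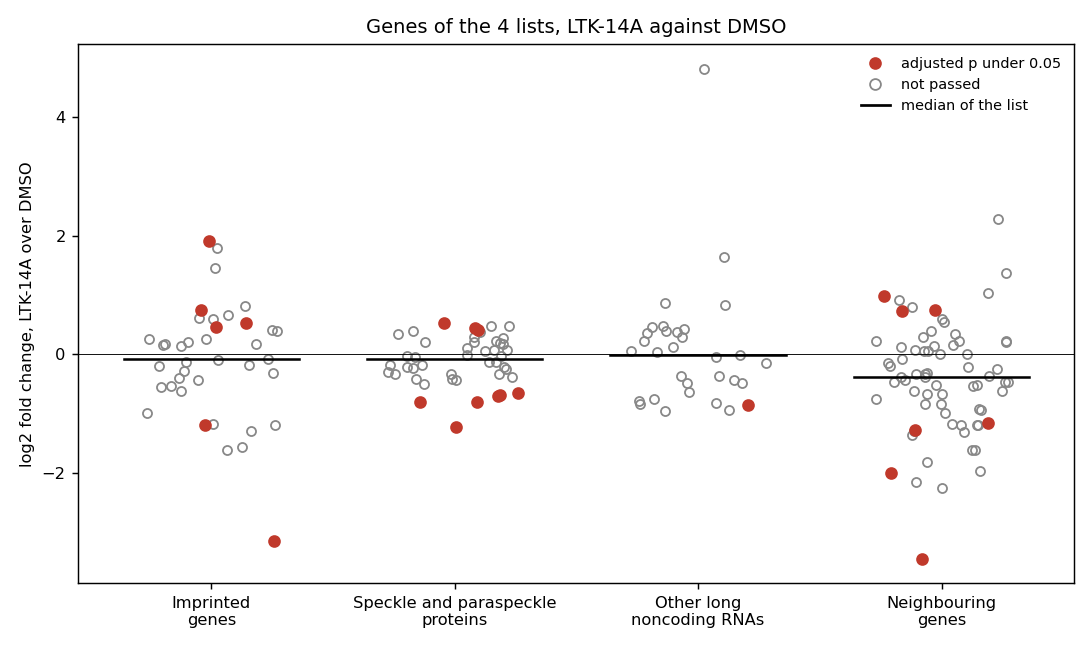
Log2 fold change of LTK-14A over DMSO for each tested gene of the 4 lists, with filled points for an adjusted p under 0.05 and a line at the median of each list. Filled points lie on both sides of 0 in 3 lists, and the 1 filled point among other long noncoding RNAs is Mir99ahg at -0.85.

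Rows within 250000 bases of the 7 genes numbered 202, of which 70 were tested and 13 are also on the imprinted list. Between LTK-14A and DMSO 3 rose and 4 fell, 10% of those tested, and the median was -0.39 against -0.05 over all genes tested. Around Malat1 and Neat1 1 row rose and 4 fell of 41 tested, and the riser was Gm37376, inside Malat1. Its reads cannot be told apart from those of Malat1, which was chosen on its values. Its call is thus no separate test, though the counts of neighbours include it. Slc22a20 fell to 0 and 1.24 in LTK-14A libraries, against 17.4 and 13.6 in DMSO libraries (limma adjusted p = 0.011), and Cdc42ep2 and Znhit2 fell by 1.15 and 1.27 on the log2 scale. Under quantile normalization the split over all neighbours was 4 higher and 2 lower, and with equal totals it was 4 higher and 5 lower. Around Meg3, Rian and Mirg only 4 of 107 rows could be tested, and Dlk1 and the model Gm3379 rose.

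Around H19 none of 12 and around Kcnq1ot1 none of 13 tested rows passed between LTK-14A and DMSO. Against untreated, 12 rows around Malat1 and Neat1 fell and 1, again Gm37376, rose in LTK-14A. Over all neighbours 2 rose and 13 fell in that comparison, but 3 rose and 4 fell without the second untreated library, the one with 16.4% ribosomal RNA. The count of 15 became 0 without the first LTK-14A library, 3 without the second and 8 without either DMSO library. Nap1l4, near Kcnq1ot1 and named after its values were seen, was at 245.6 and 208 in LTK-14A libraries, 316.1 and 295.5 in DMSO libraries, and 399.4 and 379.2 in untreated libraries (limma adjusted p = 0.0123 for LTK-14A against untreated). The count of 7 against DMSO lay between 0 and 2 without any 1 of the LTK-14A or DMSO libraries and was 12 or 10 without the first or the second untreated library.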

How the data were processed

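Total RNA of 6 libraries of 3T3L1 cells was measured by sequencing. The authors deposited 1 table with 1 value per gene and library on a log10 scale, which the values show to be log10 taken over log2 of a normalized value (no header names the scale). Coordinates are those of mm10, per the submitters' processing notes. The normalization, the annotation, the counter with its strand setting and the aligner are not given in the sources used.

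Each value was turned back as 2 to the power of 10 to the value, and a deposited 0 was kept as 0, a placeholder for at most 1. Whole reads could not be recovered, so no count test was used and no counting interval is given. Exon lengths came from GENCODE vM21, which held 53237 of the 53342 identifiers. Rows at 1 or more in 2 libraries or more (24139) were fitted as log2(value + 1) in limma 3.58.1 (R 4.3.3), with a variance trend, all 6 libraries, 3 group means and no replicate block. On this scale the fold changes of low genes come out too small. Python 3.11.15 with numpy 2.4.6, pandas 2.3.3 and matplotlib 3.10.9 was used for the rest. The fit was tested on simulated data.

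The 7 genes, the lists and the tests were chosen with earlier results of these data known. Named by rule were the 7 genes, from each of 4 lists the 4 genes with the smallest adjusted p in LTK-14A against DMSO whose higher group averaged 5 or more, 15 fixed partners, and the 3 genes most like Malat1 and Meg3, without unnamed models, microRNA and small nucleolar genes and pseudogenes. Other genes that passed in a list are named after their values were seen. Some genes that the rule gives are not reported here. Alternatives were quantile normalization, equal totals, equal totals without 2 ribosomal RNA loci, each library left out, the compared groups alone, no trend, a replicate block, no filter and 0.1 as pseudocount.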

Additional observations from a re-analysis of the deposited data

How the results depend on the processing

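With 2 libraries per group the counts of genes that passed depended on single libraries. Leaving out 1 library gave 591 to 3629 genes between LTK-14A and DMSO, with 1 to 6 imprinted genes, 0 to 15 speckle and paraspeckle genes, 0 to 7 other long noncoding RNAs and 0 to 12 neighbours. It gave 0 to 109 genes between DMSO and untreated, with 0 to 1 imprinted genes, 0 speckle and paraspeckle genes, 0 to 1 other long noncoding RNAs and 0 to 1 neighbours. It gave 867 to 4016 genes between LTK-14A and untreated, with 1 to 10, 0 to 17, 0 to 5 and 0 to 19 in the 4 lists in the same order. In limma without the variance trend the counts were 1205 genes, 3 imprinted, 0 speckle, 0 other long noncoding and 3 neighbouring between LTK-14A and DMSO, and 1387, 3, 0, 0 and 3 between LTK-14A and untreated. With the 2 compared groups alone, 15 speckle genes and 7 other long noncoding RNAs passed between LTK-14A and DMSO, 0 genes between DMSO and untreated, and 2044 genes, 5 speckle, 1 other long noncoding and 9 neighbouring between LTK-14A and untreated. Equal totals gave 5 speckle genes between LTK-14A and DMSO, and a pseudocount of 0.1 gave 3 genes between DMSO and untreated, where 6 passed. The cause of these shifts was not tested. The labels do not say whether replicate numbers pair the libraries. Deviations of same-numbered libraries correlated at 0.052 between LTK-14A and DMSO, -0.018 between LTK-14A and untreated, and 0.167 between DMSO and untreated. These values cannot show whether same-numbered libraries shared a culture. The replicate block gave 2635 genes between LTK-14A and DMSO, 5 between DMSO and untreated, and 3269 between LTK-14A and untreated. Among 1511 alternatives of named genes, 210 lost and 36 gained a call. Where the gene had passed, the sign changed in 0 of 574 alternatives, and where it had not, in 29 of 937. Both counts include alternatives that cannot change a fold change in this design and so keep its sign. These are no trend, no filter, the replicate block, the compared groups alone, and a library left out of the group not compared. Differences of the 6 long noncoding RNAs that passed the filter moved by less than the replicate spread in 143 of 174 alternatives. Here too, leaving out a library of the group not compared could not change the difference. Values of a few steps, as in Rian, Mirg and H19, set no direction at this depth.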
